A study of Homo sapiens with 6 samples.

Results

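The genes described here encode 9 protein kinases, grouped under the name splicing kinases. These are the CDC-like kinases CLK1, CLK2, CLK3 and CLK4, the SR protein kinases SRPK1 and SRPK2, the dual-specificity kinases DYRK1A and DYRK2, and the pre-mRNA processing kinase PRPF4B. The genes were taken by gene symbol from a table of 57150 genes, where each symbol occurred once. The list was selected on the changes in level between the groups in an earlier reading of the same values. Changes and p-values of the 9 genes are therefore a description of their size against the spread between libraries, and no independent evidence of direction. The samples are 6 RNA-seq libraries of the established human cancer cell line MDA-MB-435: 3 controls (ZCCHC24 CTRL in the labels) and 3 with knockdown of ZCCHC24 (ZCCHC24 KD), the gene of a CCHC-type zinc finger protein. Both groups share the line and the library kit, and the labels give neither the means of knockdown, nor its time, nor whether a group's libraries came from separate cultures, so the spread between them may be technical. The labels name breast as the tissue, but the melanocyte markers other than SLC45A2 were high and the breast epithelial ones mostly weak, as given further on.

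Splicing factors of the SR family carry long runs of arginine-serine dipeptides whose phosphorylation state decides where they sit and what they bind. As background, SRPKs phosphorylate these runs largely in the cytoplasm, which lets the carrier TNPO3 bring SR proteins into the nucleus, and CLKs phosphorylate them further in the nucleus, which releases them from nuclear speckles to sites of splicing. PRPF4B phosphorylates proteins of the U4/U6.U5 tri-snRNP as the spliceosome assembles. DYRK1A is found in speckles, phosphorylates splicing factors and, through LIN52, drives assembly of the DREAM complex that represses cell cycle genes; DYRK2 phosphorylates p53 and also serves as the scaffold of a ubiquitin ligase.

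The 4 CLK genes are close relatives, and the stretch below shows how far a read can tell them apart. It codes for the signature element after which CLKs are also called LAMMER kinases, with the 18 bases that code for that element, or for its counterpart in CLK3, in capitals. All lie in exon 11 of 13 of the principal GENCODE release 29 transcript, at chr2:200854636-200854695 for CLK1, chr1:155264241-155264300 for CLK2, chr15:74628604-74628663 for CLK3 and chr5:178605323-178605382 for CLK4 (GRCh38; CLK3 on the plus strand, the others on the minus strand).
CLK1: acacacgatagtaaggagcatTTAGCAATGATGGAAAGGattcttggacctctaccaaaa
CLK2: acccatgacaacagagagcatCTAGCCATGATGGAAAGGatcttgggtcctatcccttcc
CLK3: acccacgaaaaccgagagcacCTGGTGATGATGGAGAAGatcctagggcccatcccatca
CLK4: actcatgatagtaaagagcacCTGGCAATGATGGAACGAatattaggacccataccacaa
CLK1 and CLK4, the nearest pair, differed at 14 of these 60 bases and were 76.5% identical over 1440 aligned coding bases. Other CLK pairs were 58.3% to 66.3% identical and SRPK1 and SRPK2 65.6%. No window of 100 bases, the length of a read, in the principal transcripts of CLK1, CLK3, CLK4, SRPK1, SRPK2, DYRK1A or DYRK2 was found unaltered in a transcript of another gene. CLK2 shared 25 of its 1835 windows with the pseudogene CLK2P1, which was listed at 0.0311 FPKM or less in every library, and PRPF4B shared 23 of 4316 with a gene listed at 0 in all 6.

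In the values that follow, a level is in FPKM, fragment numbers per unit of transcript length and relative to a library size. How that size was reckoned is not stated. Division by length lets levels of different genes be compared. A change is knockdown minus control on the scale of log2(FPKM + 1) with its standard error from limma, and adjusted p-values are limma's with Benjamini-Hochberg correction over the 13343 genes whose mean over the 6 libraries was at least 1 FPKM. All 9 kinase genes passed that filter, with means over the 6 libraries of 8.96 FPKM (DYRK2) to 64.3 FPKM (CLK3), above 35.5% to 86% of the tested genes. ZCCHC24 itself fell from 12.7, 12.3 and 13.2 to 1.54, 1.69 and 1.81 FPKM. From the steps between values of weak genes, 1 fragment was worth up to 1.26 times as much in one library as in another, and absolute depth is unknown.

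After ZCCHC24 knockdown, 8 of the 9 kinase genes rose at an adjusted p below 0.05, none fell, and CLK2 did not pass. Across all tested genes 72.4% were called in either direction, 37% as higher and 35.4% as lower. At an unadjusted p below 0.05 the kinase counts were the same, 8 and 0. The knockdown libraries lay above all control libraries for those 8 genes, as they did for 38.7% of tested genes, and the groups were apart in either direction for 75.9%. The median change of the 9 genes was 0.55, against 0.01 for all tested genes. SRPK2, CLK1 and CLK4 rose by at least 1 on the log2 scale at a limma adjusted p below 0.05, as did 4.96% of tested genes. Summed over the 9 genes, the level went from 239, 256 and 244 FPKM in the controls to 419, 439 and 410 FPKM. In bulk libraries, more cells in a state that expresses these genes and more RNA per cell cannot be told apart.

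**Figure D1:**
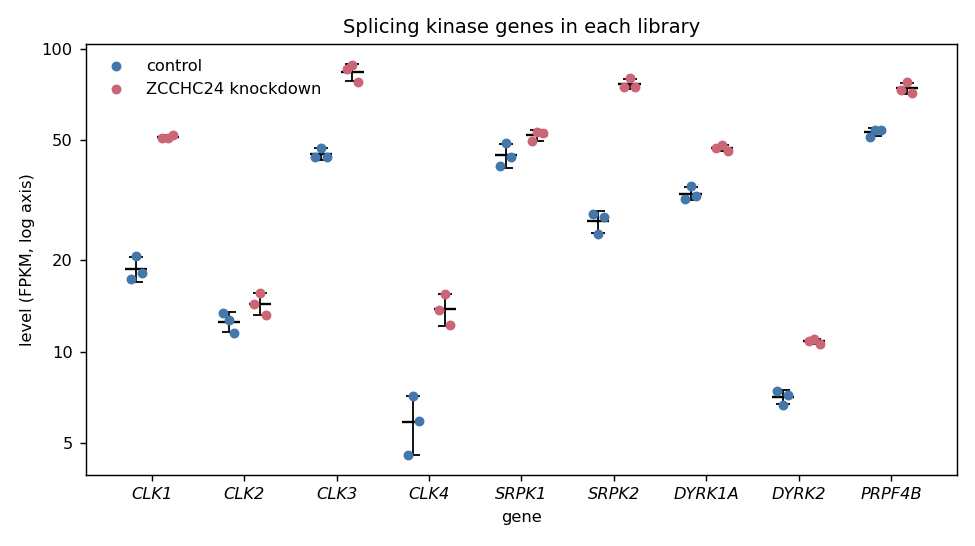
Level of each kinase gene in FPKM on a log axis, with 1 point per library (control blue, knockdown red), a horizontal line at the mean and bars of 1 SD, n = 3 per group. The groups are apart for every gene except CLK2, and the gap is widest for SRPK2 and CLK1.

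SRPK2 (ENSG00000135250; hg19 chromosome 7, 104653871 to 105039755) had the largest rise of the 9. Its level was 28.5, 24.4 and 27.8 FPKM in controls 1 to 3 and 74.8, 80.0 and 74.8 FPKM in the knockdown libraries. The lowest knockdown library was 2.63 times the highest control. The change was 1.48 ± 0.06 (SE, n = 3 per group; limma adjusted p 4.6e-07), and 173 tested genes, or 1.3%, rose more. The table gives the same wide locus to 9 other genes, so its bounds are not those of SRPK2 alone. The listed locus of CLK2 is likewise shared with 2 other genes, and those of CLK1, CLK4, SRPK1 and DYRK2 with 1 each.

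SRPK1 (ENSG00000096063; hg19 chromosome 6, 35773069 to 35889119), its partner gene, moved far less. It stood at 40.9, 48.7 and 43.7 FPKM in the controls and at 49.4, 53.2 and 52.5 FPKM after knockdown. The groups touched almost, since control 2 lay just under knockdown 1. The change was 0.22 ± 0.07 (limma adjusted p 0.018), and the call was lost without control 3 (adjusted p = 0.051), knockdown 2 (adjusted p = 0.058) or knockdown 3 (adjusted p = 0.053) in the same limma fit.

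Within each library, SRPK2 made up 41.0%, 33.4% and 38.9% of the summed SRPK1 and SRPK2 level in the controls and 60.2%, 60.1% and 58.8% after knockdown. The order of the pair thus turned in every library, from SRPK1 above SRPK2 to SRPK2 above SRPK1. These shares do not depend on scaling between libraries; they were not tested, as the genes were chosen with their changes known. SRPK3, the remaining gene of the family, known for its expression in muscle, was at 0.423 FPKM or less in each library and was not tested.

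CLK1 (ENSG00000013441; hg19 chromosome 2, 201717731 to 201729422), a nuclear kinase that also regulates splicing of its own transcript, was the next largest rise. It stood at 17.3, 20.7 and 18.1 FPKM in the controls and 50.6, 50.5 and 51.8 FPKM in the knockdown libraries. The knockdown values span little more than 1 FPKM, and the lowest is 2.45 times the highest control. The change was 1.41 ± 0.07 (limma adjusted p 6.5e-07), exceeded by 217 tested genes.

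CLK4 (ENSG00000113240, hg19 chromosome 5, 178029664 to 178057616), the closest relative of CLK1, had the lowest mean of the 9 genes in the controls, overlapping with DYRK2. It stood at 4.55, 7.12 and 5.88 FPKM there and rose to 13.7, 15.5 and 12.2 FPKM. The groups were apart, while the relative spread among the controls was the widest of the 9 genes. The change was 1.12 ± 0.14 (limma adjusted p 0.00015). The ratio of CLK1 to CLK4 overlapped between the groups, at 3.79, 2.9 and 3.07 in the controls and 3.69, 3.26 and 4.26 after knockdown.

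CLK3 (ENSG00000179335; hg19 chromosome 15, 74890840 to 74988633) was the most abundant CLK gene in every library. It stood at 43.9, 47.1 and 43.7 FPKM in the controls and 85.4, 88.2 and 77.7 FPKM after knockdown. The change was 0.88 ± 0.06 (limma adjusted p 3.2e-06). Its listed locus is shared with 2 other genes of the table, among them EDC3, so it is wider than CLK3 itself.

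CLK2 (ENSG00000176444; hg19 chromosome 1, 155232658 to 155271225) was the 1 kinase gene that did not pass. It stood at 13.4, 12.7 and 11.5 FPKM in the controls and 14.3, 15.6 and 13.2 FPKM in the knockdown libraries, so that knockdown 3 lay below control 1. The change was 0.18 ± 0.08 with a 95% interval of -0.001 to 0.36 (limma adjusted p 0.069). With median scaling (adjusted p 0.035), with quality weights (0.046), without control 1 (0.048) or without knockdown 3 (0.037), the same limma test called it higher.

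The CLK genes therefore changed their proportions as well as their sum. Their summed level went from 79.2, 87.6 and 79.2 FPKM to 164, 170 and 155 FPKM. CLK1 supplied 21.8%, 23.6% and 22.8% of it in the controls and 30.8%, 29.7% and 33.4% after knockdown, with no overlap. The share of CLK2 went the other way, from 16.9%, 14.5% and 14.5% to 8.7%, 9.2% and 8.52%. CLK3 remained the largest part, at 53.8% to 55.5% and then 50.2% to 52.1%, and the share of CLK4 overlapped between groups. GENCODE release 29 marks 8 of 15 CLK1 transcripts, 7 of 15 of CLK4, 8 of 27 of CLK3 and 0 of 7 of CLK2 as retaining an intron. For the other kinase genes they were 2 of 15 for SRPK2, 4 of 13 for SRPK1, 4 of 24 for DYRK1A, 0 of 6 for DYRK2 and 1 of 9 for PRPF4B. A relation of these numbers to the changes was not tested. The deposited level is 1 sum per gene, so spliced and intron-retaining transcripts were not told apart here.

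**Figure D2:**
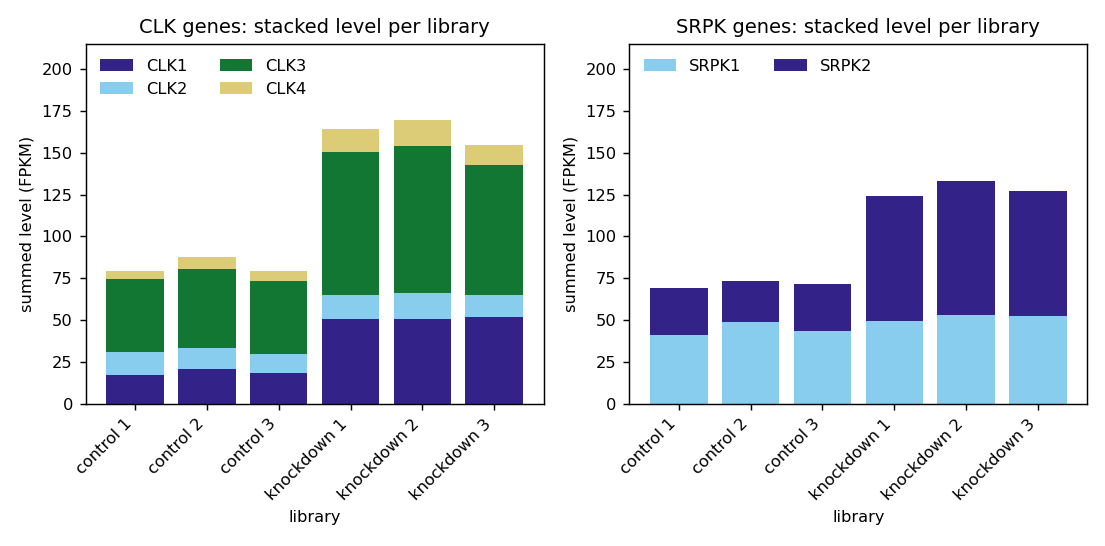
Stacked levels in FPKM of the CLK genes (left) and of SRPK1 and SRPK2 (right) in each library. The CLK sum goes from 79.2 to 87.6 FPKM in the controls to 155 to 170 FPKM after knockdown, and the SRPK2 part of the SRPK sum from 33.4% to 41.0% to 58.8% to 60.2%.

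The promoters of the CLK genes are shown because 3 of the 4 genes rose together. Each is the 250 bases before the RefSeq transcript start with the most GENCODE starts within 100 bases, at chr2:200864659-200864908 for CLK1, chr1:155273505-155273754 for CLK2 and chr5:178627051-178627300 for CLK4, all on the minus strand, and chr15:74615586-74615835 for CLK3 on the plus strand (GRCh38, from RefSeq). Capitals mark CGTCA, the reverse complement of TGACG and a part of the cyclic AMP response element.
CLK1: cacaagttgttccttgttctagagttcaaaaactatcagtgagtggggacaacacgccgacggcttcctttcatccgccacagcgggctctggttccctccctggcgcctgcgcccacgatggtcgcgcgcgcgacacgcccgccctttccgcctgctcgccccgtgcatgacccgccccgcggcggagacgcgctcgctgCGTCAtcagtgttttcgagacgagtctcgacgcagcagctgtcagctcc
CLK2: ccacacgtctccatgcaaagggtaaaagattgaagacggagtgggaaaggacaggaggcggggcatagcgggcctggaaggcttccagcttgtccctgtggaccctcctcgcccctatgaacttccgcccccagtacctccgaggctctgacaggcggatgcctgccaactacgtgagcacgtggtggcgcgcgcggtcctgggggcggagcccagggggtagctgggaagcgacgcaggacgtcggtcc
CLK3: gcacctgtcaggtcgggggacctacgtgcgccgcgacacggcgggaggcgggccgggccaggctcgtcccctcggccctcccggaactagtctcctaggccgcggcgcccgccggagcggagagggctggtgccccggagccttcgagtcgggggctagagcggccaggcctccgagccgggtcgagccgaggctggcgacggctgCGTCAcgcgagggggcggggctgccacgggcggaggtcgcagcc
CLK4: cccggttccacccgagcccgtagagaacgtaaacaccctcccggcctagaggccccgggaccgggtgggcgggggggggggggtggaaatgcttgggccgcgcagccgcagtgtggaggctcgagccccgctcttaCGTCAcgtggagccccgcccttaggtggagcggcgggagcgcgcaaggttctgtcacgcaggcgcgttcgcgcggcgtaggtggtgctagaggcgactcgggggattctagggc
Searched on both strands, TGACG was present once each in CLK1, CLK3 and CLK4, with its first base 49, 44 and 114 bases before the start, and not in the CLK2 window. Nor was it in the windows of SRPK2, which had the largest rise, SRPK1 or DYRK1A. It occurs in 21.2% of 34788 promoter windows of that length. In CLK4 it overlaps a CACGTG E-box, a motif that the CLK2 window also holds and that occurs in 6.31% of windows. The full element TGACGTCA was in none of the 7 kinase promoter windows found (the CLK and SRPK genes and DYRK1A). The GC box GGGCGG was in 6 of those 7, DYRK1A excepted, and in 42.6% of all windows. The shares over all windows are not matched for G and C content, so no enrichment can be read from them. The DYRK1A window, picked from 6 for that gene, held 26.4% G or C, against 64.4% (CLK1) to 85.6% (SRPK2) in the others. Whether it is the promoter in use was not tested, so motifs missing from it are not a trait of the gene. The motifs were picked after the sequences had been seen, and a match does not show that a factor binds.

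DYRK1A (ENSG00000157540; hg19 chromosome 21, 38739235 to 38887680) rose in moderation. It stood at 31.9, 35.1 and 32.7 FPKM in the controls and 46.9, 47.9 and 45.8 FPKM after knockdown, without overlap. The change was 0.48 ± 0.05 (limma adjusted p 4e-05), and 20.9% of tested genes rose more.

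DYRK2 (ENSG00000127334; hg19 chromosome 12, 68042117 to 68064699) was weaker but moved alike. It stood at 7.4, 6.68 and 7.21 FPKM in the controls and 10.8, 11.0 and 10.6 FPKM after knockdown, again without overlap. The change was 0.55 ± 0.06 (limma adjusted p 8e-05). The ratio of DYRK1A to DYRK2 overlapped between the groups.

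The rest of the DYRK family did not share this rise. DYRK3, which controls the dissolution of nuclear speckles and other condensates, fell from 24.4, 24.6 and 24.0 to 17.7, 17.3 and 15.8 FPKM (-0.50 ± 0.06, limma adjusted p 6.8e-05). DYRK4 was at 20.6 to 22.8 FPKM in the controls and 21.2 to 25.5 FPKM after knockdown (0.08 ± 0.07, limma adjusted p 0.37), and DYRK1B was below 1 FPKM in each library and was not tested. The family members outside the 9 genes are named after their values were seen.

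PRPF4B (ENSG00000112739; hg19 chromosome 6, 4021500 to 4157619) was the most abundant of the 9 genes in the controls. It stood at 51.2, 53.8 and 53.9 FPKM there and at 73.1, 77.5 and 71.1 FPKM after knockdown, with no overlap. The change was 0.47 ± 0.05 (limma adjusted p 3.3e-05). Its listed locus holds 6 other genes of the table, among them ECI2.

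**Figure D3:**
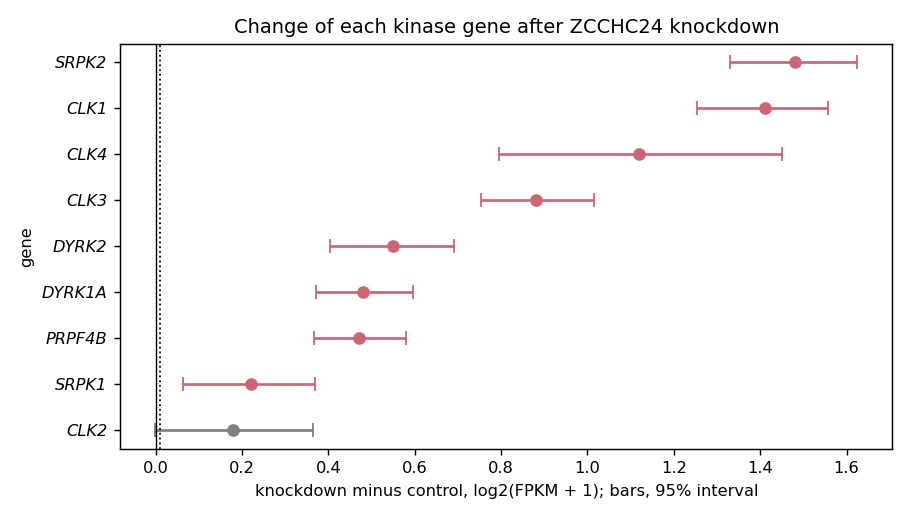
Change of each kinase gene, knockdown minus control on log2(FPKM + 1), with limma's 95% interval (n = 3 per group); red, adjusted p below 0.05; grey, not called; dotted line, the median of all tested genes at 0.01. SRPK2 and CLK1 lie at 1.48 and 1.41, and the interval of CLK2 reaches 0.

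The order of the levels changed with knockdown. In the controls it ran PRPF4B, CLK3, SRPK1, DYRK1A, SRPK2, CLK1, CLK2, DYRK2 and CLK4, where neighbours overlapped in their library ranges only for CLK3 with SRPK1 and DYRK2 with CLK4. After knockdown it ran CLK3, SRPK2, PRPF4B, SRPK1, CLK1, DYRK1A, CLK2, CLK4 and DYRK2. There CLK3 overlapped with SRPK2, SRPK2 with PRPF4B, SRPK1 with CLK1, and CLK2 with CLK4. SRPK2 thus moved from below DYRK1A to a range that overlapped with that of CLK3 and, separately, with that of PRPF4B, which did not overlap with each other.

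The tested genes closest in profile to SRPK2, by Euclidean distance of centred log2(FPKM + 1) over the 6 libraries, were ATP6V0A1 (distance 0.08), ARID5B (0.1) and CCSER2 (0.11). ATP6V0A1, a subunit of the vacuolar proton pump, went from 17.6 ± 1.12 to 52.0 ± 1.06 FPKM (SD, n = 3). ARID5B went from 9.64 ± 0.849 to 28.6 ± 1.28 FPKM and CCSER2 from 13.1 ± 0.663 to 38.2 ± 0.946 FPKM.

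Other kinases that act on RNA-binding proteins or belong to the same CMGC branch, listed with the topoisomerase TOP1, which rose, moved both ways. Rises passed for 8 of 15 tested genes and falls for 6, leaving 1, so that 93.3% were called against 72.4% of all tested genes, and the median change was 0.17 against 0.01 over all tested genes. HIPK3, a homeodomain-interacting kinase, rose from 11.9 ± 0.80 to 17.7 ± 0.455 FPKM (0.53 ± 0.06, limma adjusted p 8.7e-05). CDK9, the kinase of the elongation factor P-TEFb, fell from 44.3 ± 1.38 to 30.6 ± 1.23 FPKM (-0.52 ± 0.05, limma adjusted p 2.3e-05). CDK11A went from 17.6 ± 1.29 to 26.5 ± 2.38 FPKM and its near-identical copy CDK11B from 29.2 ± 0.494 to 21.7 ± 2.55 FPKM, and how their shared reads were divided is not stated, so both values are uncertain.

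The substrates of SRPKs and CLKs were called about as often as genes in general. Of 24 tested genes of arginine-serine-rich proteins and related targets, 9 rose and 9 fell, the remaining 6 were not called, and the median change was 0.04; 75% were called in all, against 72.4% of tested genes. The largest changes were rises: SREK1, an SR-related regulator, went from 29.2 ± 2.67 to 64.3 ± 4.06 FPKM (1.12 ± 0.07, limma adjusted p 3.6e-06). SRRM2, a scaffold of nuclear speckles, went from 89.7 ± 5.46 to 172 ± 11.7 FPKM (0.93 ± 0.06, limma adjusted p 4e-06). SON, another speckle scaffold, went from 117 ± 6.55 to 195 ± 8.82 FPKM (0.73 ± 0.05, limma adjusted p 5.7e-06). The SR proteins proper, added here after their values were seen, moved both ways: SRSF1, SRSF2, SRSF3, SRSF6, SRSF7 and SRSF8 fell, SRSF4 and SRSF11 rose, SRSF5, SRSF9 and SRSF10 were not called, and SRSF12 was not tested. SRSF7 went from 134 ± 7.59 to 84.6 ± 2.64 FPKM (-0.65 ± 0.05, limma adjusted p 7.8e-06) and SRSF4 from 20.4 ± 1.44 to 33.9 ± 1.21 FPKM (0.70 ± 0.06, limma adjusted p 1.6e-05).

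Phosphatases that remove these phosphates, carriers and regulators of SRPKs were all called, 12 of 20 as higher and 8 as lower, against 37% and 35.4% of all tested genes, with a median change of 0.22. NXF1, the mRNA export receptor that binds dephosphorylated SR proteins, went from 28.3, 28.1 and 24.7 to 85.0, 84.9 and 84.6 FPKM (1.62 ± 0.06, limma adjusted p 2.1e-07). PPP2CA, a catalytic subunit of protein phosphatase PP2A, went from 76.8 ± 10.1 to 155 ± 8.32 FPKM (1.01 ± 0.09, limma adjusted p 2.2e-05). The carrier TNPO3 rose from 37.0 ± 0.432 to 46.1 ± 2.05 FPKM (0.31, limma adjusted p 0.00035).

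Among 21 genes of the tri-snRNP and the SF3 complexes, to which substrates of PRPF4B and DYRK1A belong, 11 fell and 8 rose. This left 2 without a call. In all, 90.5% were called, against 72.4% of all tested genes, and the median change was -0.14. The largest changes were of TXNL4A and PPIH, small tri-snRNP proteins, which fell by 1.85 ± 0.07 and 1.56 ± 0.06 (limma adjusted p 3.5e-07 and 3.6e-07), and of SF3B1, a known DYRK1A substrate, which rose from 80.5 ± 3.97 to 138 ± 4.27 FPKM (0.77 ± 0.05, limma adjusted p 2.3e-06). PRPF6 and PRPF31, the substrates known for PRPF4B and picked here for that role, rose by 0.53 ± 0.04 and 0.34 ± 0.05 (limma adjusted p 7e-06 and 0.00063). DDX23, a helicase phosphorylated by SRPK2, was 36.2 ± 0.64 and 42.1 ± 0.762 FPKM (0.21 ± 0.04, limma adjusted p 0.0015).

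Partners of the DYRKs and the subunits of DREAM and its MuvB core were called in 80% of cases, against 72.4% of all tested genes: 13 of 25 were lower, 7 higher and 5 not called, with a median change of -0.20. TFDP1, the dimer partner of E2F factors, fell from 73.5 ± 5.26 to 24.4 ± 0.918 FPKM (-1.55 ± 0.06, limma adjusted p 2.9e-07), and E2F5, a repressive E2F, from 5.27 ± 0.625 to 1.24 ± 0.31 FPKM (-1.49 ± 0.13, limma adjusted p 2e-05). LATS2, a Hippo pathway kinase that phosphorylates DYRK1A, rose from 5.42 ± 0.652 to 15.3 ± 0.229 FPKM (1.35 ± 0.08, limma adjusted p 2.3e-06). LIN52, the DREAM subunit that DYRK1A phosphorylates, was at 7.93 ± 1.42 and 7.9 ± 0.999 FPKM (0.00 ± 0.13, limma adjusted p 0.99), and DCAF7, an adaptor that binds DYRK1A, fell from 48.2 ± 2.3 to 33.7 ± 0.195 FPKM (-0.50 ± 0.05, limma adjusted p 2.5e-05). SIAH2, a ubiquitin ligase for DYRK2, fell from 18.1 ± 0.57 to 10.8 ± 0.312 FPKM (-0.70, limma adjusted p 8.1e-06). LIN52, DCAF7 and SIAH2 were chosen for their ties to DYRKs, with their values in view.

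**Figure D4:**
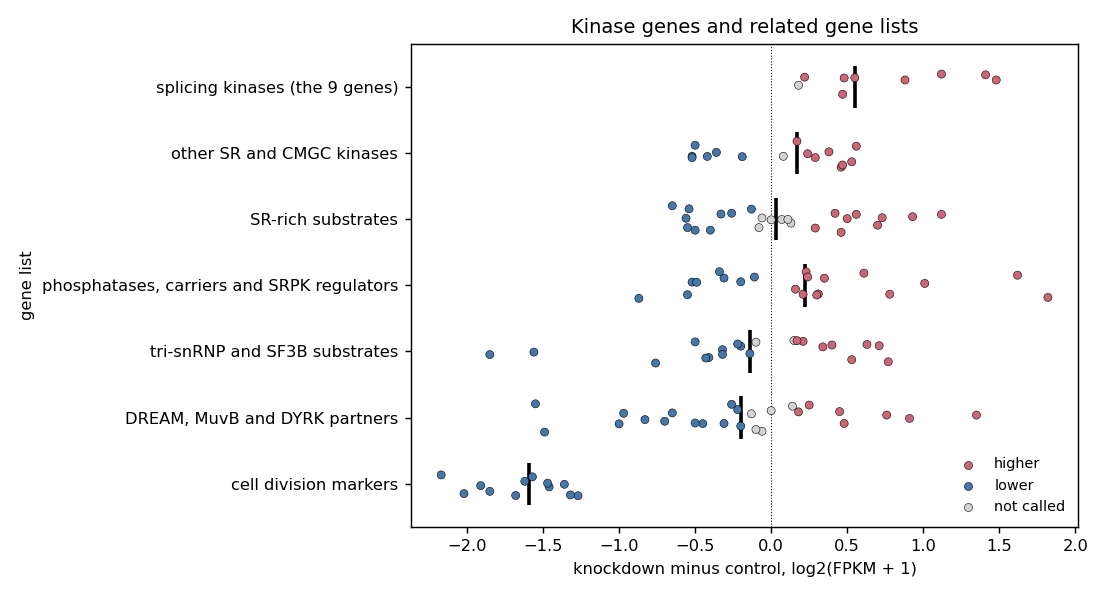
Change on log2(FPKM + 1), knockdown minus control, of each tested gene in the kinase set and in the related lists; red, called higher; blue, called lower; grey, not called at a limma adjusted p of 0.05; bars, medians. The kinases lie at or above 0.18, while the other lists reach to both sides of 0 except the cell division markers, which all lie at or below -1.27.

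Cell division genes moved with the groups, and their part in the kinase changes was not tested. All 12 division markers fell, with a median change of -1.59, and their summed level was 1167 to 1206 FPKM in the control libraries and 354 to 394 FPKM in the knockdown libraries. CDK1, AURKB and PLK1, kinases of mitosis, had the largest falls, of 2.17, 2.02 and 1.91. Melanocyte markers summed to 2223 to 2325 FPKM in the controls and 1516 to 1580 FPKM after knockdown, with 8 of 9 tested markers lower, led by PMEL, TYRP1 and GPR143, which fell by 2.14, 1.72 and 1.19. SLC45A2, the 1 melanocyte marker not tested, was below 1 FPKM in each library. It averaged 0.101 FPKM in the controls and 0.385 FPKM after knockdown, without overlap. Breast epithelial markers summed to 107 to 123 and 147 to 155 FPKM. Of those 12 markers 6 were below 1 FPKM on average, KRT5 and ELF5 were listed at 0 in every library, ESR1 and GATA3 were below 1 FPKM on average, and KRT8 and KRT18, at 44.8 ± 2.11 and 90.8 ± 2.11 FPKM after knockdown, were the 2 that rose.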

How the data were processed

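The authors deposited 1 table of FPKM values with a column for each of 6 libraries, made with a stranded mRNA kit and read as pairs of 100 bases, per the labels' protocols. The submitters' processing notes name TopHat 1.4.1, Cuffdiff 2.2.0 and hg19 but not their roles; annotation, filters and scaling are not stated. Because FPKM is relative to a library size, a large change in abundant genes can move all others. The 1 blank row was left out. Groups were taken from titles.

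For the 13343 genes averaging 1 FPKM or more, log2(FPKM + 1) was fitted in R 4.3.3 with limma 3.58.1 with a mean-variance trend, two-sided, threshold 0.05; this understates changes of weak genes. No count model was run, since the values are not counts. The fit was tested on simulated data. An exact two-sided permutation test of 3 against 3 libraries cannot go below p = 0.1, so none is given. Members, lists and tests were chosen with earlier results of these data known. Named genes are the members, the 3 largest called changes of each list and the 3 profiles nearest to the member with the largest rise (no member fell); exceptions are marked, and some genes the rule covers are not reported here. Sequences came from RefSeq (GRCh38) and GENCODE release 29, and their coordinates are kept apart from the hg19 loci. Other settings tried were a filter at 5 FPKM or none, a pseudocount of 0.1, quality weights, scaling to the library median, a replicate block and leaving out each library.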

Additional observations from a re-analysis of the deposited data

How the results depend on the processing

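All alternatives were planned. Over the 12 refits 7 to 9 of the kinase genes were called higher and 0 lower; SRPK1 missed the threshold without control 3, knockdown 2 or knockdown 3, and CLK2 passed it with median scaling, quality weights, the replicate block, or without control 1 or knockdown 3; the cause was not tested. The other 7 kinase genes stayed called, with a highest limma adjusted p of 0.002, for CLK4. The changes ran from 1.41 to 1.52 for SRPK2, 1.35 to 1.48 for CLK1 and 0.98 to 1.25 for CLK4. The replicate block called 9 kinase genes higher, CLK2 with an adjusted p of 0.037; the labels do not say what the numbers pair, and the deviations of libraries with equal numbers correlated at -0.0266, -0.0671 and 0.0242, which is no sign of pairing. List counts stayed within 1.5 times, except that 1 melanocyte marker was called higher without the filter, where 10 rather than 9 were tested. Depth in fragments is unknown, so no detection limit is given for genes listed at 0.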

Other observations

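Some close relatives among the regulators of SR protein phosphorylation changed in opposite directions; these genes were chosen after their values were seen. Others moved together: PPP2CA and PPP2CB rose, SAFB and SAFB2 rose, and HSP90AA1 and HSP90AB1 fell. AKT1 went from 106, 99.9 and 97.1 FPKM in the controls to 57.1, 51.6 and 55.0 FPKM after knockdown (change -0.87 ± 0.05 on log2(FPKM + 1), limma adjusted p 2e-06), while AKT2 went from 71.4 to 79.9 FPKM (0.16 ± 0.05, limma adjusted p 0.013).

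The catalytic subunits of protein phosphatase PP1, which dephosphorylates SR proteins, were also divided. PPP1CA went from 172, 155 and 154 to 115, 110 and 111 FPKM (-0.52 ± 0.05, limma adjusted p 2.7e-05) and PPP1CC from 111, 122 and 122 to 79.0, 79.8 and 82.9 FPKM (-0.55 ± 0.05, limma adjusted p 1.8e-05). PPP1CB went the other way, from 58.7, 67.2 and 69.9 to 114, 114 and 109 FPKM (0.78 ± 0.06, limma adjusted p 1.3e-05), and reached the level of PPP1CA.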
